A study of Mus musculus with 5 samples.

Results

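Of the 585 alternative splicing events in the authors' table, 174 are pairs of junctions confined to short introns, and they are described here. An event was taken when it had exactly 2 junctions and the larger of the 2 spans, the end minus the start of a junction, was under 3000 nt. The 174 events hold 348 junctions in 147 genes. The other 2-junction events (234) cross longer introns, and 177 events have 3 or more junctions. The choice used positions alone and no fold or p-value.

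The cells were cortical neurons of C57BL/6 mouse embryos (E16.5), kept to day 5 in vitro. They received lentivirus with a short hairpin RNA against PQBP1 (PQBP1 knockdown, 2 samples) or with a non-targeting hairpin (mock knockdown, 3 samples), so both groups carried virus and a hairpin. Only 1 targeting treatment is described in the labels. The table compares the groups and gives no value per sample, no read count and no gene level. Depth, replicate spread, the level of Pqbp1 and the neuronal identity of the cultures could therefore not be read from it, and no SD or n stands beside a value.

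PQBP1 acts in the nucleus, where it contacts spliceosome proteins, and its mutations in people underlie an X-linked intellectual disability. Splicing joins a donor (the 5' splice site, which begins the intron with GT) to an acceptor (the 3' splice site, which ends it with AG). In short introns the donor and acceptor are thought to be recognised as a pair across the intron, and in long introns the exon between them is thought to be recognised first. Where a skipped or added stretch shifts the reading frame or carries a stop codon, the messenger RNA can be removed by nonsense-mediated decay.

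The members are shown first by the sequence that is kept or lost, read 5' to 3' along the transcript from the GENCODE transcripts, with mm10 positions. The first set holds coding cassette exons that were included less after knockdown. Capitals mark the last 2 bases of the exon, next to the donor.
Acad8, chr9:26990583-26990692, minus strand: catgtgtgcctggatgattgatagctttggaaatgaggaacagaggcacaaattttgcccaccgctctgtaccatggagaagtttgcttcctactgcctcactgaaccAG
Rps6kb2, chr19:4159403-4159460, minus strand: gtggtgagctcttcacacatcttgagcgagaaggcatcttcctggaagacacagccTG
Ehmt2, chr17:34911363-34911478, plus strand: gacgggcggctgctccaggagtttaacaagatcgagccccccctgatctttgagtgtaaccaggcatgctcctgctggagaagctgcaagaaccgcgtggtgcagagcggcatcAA
Jag2, chr12:112915605-112915718, minus strand: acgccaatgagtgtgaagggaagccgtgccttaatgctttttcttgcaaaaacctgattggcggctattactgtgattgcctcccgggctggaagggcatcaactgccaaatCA
Med25, chr7:44880567-44880638, minus strand: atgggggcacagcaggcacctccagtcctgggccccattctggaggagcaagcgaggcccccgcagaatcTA

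The second set holds the short coding exons of the group, of 12 to 33 nt, in the same notation. The exons of Ppp1r9a and Nnat were included less after knockdown, and those of Agrn, Dapk3 and Gramd1a more.
Agrn, 33 nt, chr4:156167777-156167809, minus strand: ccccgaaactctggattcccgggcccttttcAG
Agrn, 24 nt, chr4:156168546-156168569, minus strand: cgagctgaccaatgagatcccaGC
Ppp1r9a, chr6:5157004-5157027, plus strand: agcctggatatgatagatgacgAG
Dapk3, chr10:81191042-81191068, plus strand: gagcattggcgtcatcacctacatcCT
Nnat, chr2:157561213-157561239, plus strand: gtgttcctggaatgctgcatttactGG
Gramd1a, chr7:31133220-31133231, minus strand: gatctgtgtgAG

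The third set shows pairs of splice sites a few bases apart, in coding sequence. Capitals mark the bases that stay in the messenger RNA when the nearer site is used. At the acceptors these 3 bases end in the AG of the farther acceptor, and at the donors they begin with the GT of the farther donor.
Metap2 acceptor, chr10:93887079-93887101, minus strand: CAGtgcaacaagaacttgataaa
Ttc27 acceptor, chr17:74863334-74863356, plus strand: CAGaattttacagatgtggtaag
Ubap2l acceptor, chr3:90002454-90002476, minus strand: CAGtcctttgagaaacaagggtt
Setdb1 acceptor, chr3:95340043-95340065, minus strand: AAGcttagaaagccaacttgcac
Traf7 donor, chr17:24512950-24512975, minus strand: atcaagtgtccccactctaaGTACGG
Itfg3 donor, chr17:26214328-26214365, minus strand: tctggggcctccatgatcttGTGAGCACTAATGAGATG
Scg3 donor, chr9:75663193-75663227, minus strand: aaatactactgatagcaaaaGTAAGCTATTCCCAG
Dip2c donor, chr13:9614437-9614468, plus strand: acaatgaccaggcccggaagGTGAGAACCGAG

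For each event the change compares use of the nearer (shorter) with use of the farther (longer) junction, as their ratio after PQBP1 knockdown, divided by that ratio after mock knockdown. An event is called lower or higher by whether this ratio is under or over 1. For a cassette exon the nearer junction includes the exon and the farther one skips it. The share of an event's reads that use the nearer junction was inferred from its 2 folds, taking the 2 shares to add up to the whole. For a cassette exon it is a share among messages that use the splice site both junctions have in common. It is an inference and not a count, and it rests on the same folds as the change.

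All 174 short events have a p-value under 0.05 in the authors' deposited table, as do 100% of the 408 2-junction events, so this count only restates how the list was made. The p-value was under 0.01 for 50 short events (28.7%, background over all 2-junction events 25.7%, long events 23.5%) and under 0.001 for 10 (5.75%, background 4.9%, long events 4.27%), in the authors' deposited table. The nearer junction was lower in 108 short events and higher in 66, that is 62.1% lower, against 57.1% of all 2-junction events and 53.4% of the long ones. It was higher in 37.9% of the short, 42.9% of all and 46.6% of the long events. The ratio changed by at least 1 on the log2 scale in 143 short events (82.2%, background 76.5%, long events 72.2%). The median absolute change (log2 scale) came to 1.44 in short events (middle 50% of events from 1.11 to 1.83) and 1.29 in long ones. Because the events are one list chosen by p and are not replicates of the cultures, no test of short against long events was made here or below, and these shares describe the list.

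Cassette exons made up 110 of the short events, and skipping was the prevailing direction. Inclusion was lower in 79 of them and higher in 31, or 71.8% lower, beside 62.2% of all cassette exon events and 56% of the long ones. Alternative splice sites leaned the other way: the nearer site was used more in 12 of 17 alternative 5' splice site events and in 11 of 18 alternative 3' splice site events, beside 16 of 23 and 12 of 25 among all 2-junction events of those types. With a limit of 2000 nt the acceptors no longer leaned, with 50% lower. The 23 events with a site missing from the gene models split into 11 higher and 12 lower. The remaining short events were 3 of mutually exclusive exons, 2 of alternative first exons and 1 cassette of several exons. No short event was an alternative last exon, a type that counted 11 among the long events.

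**Figure D1:**
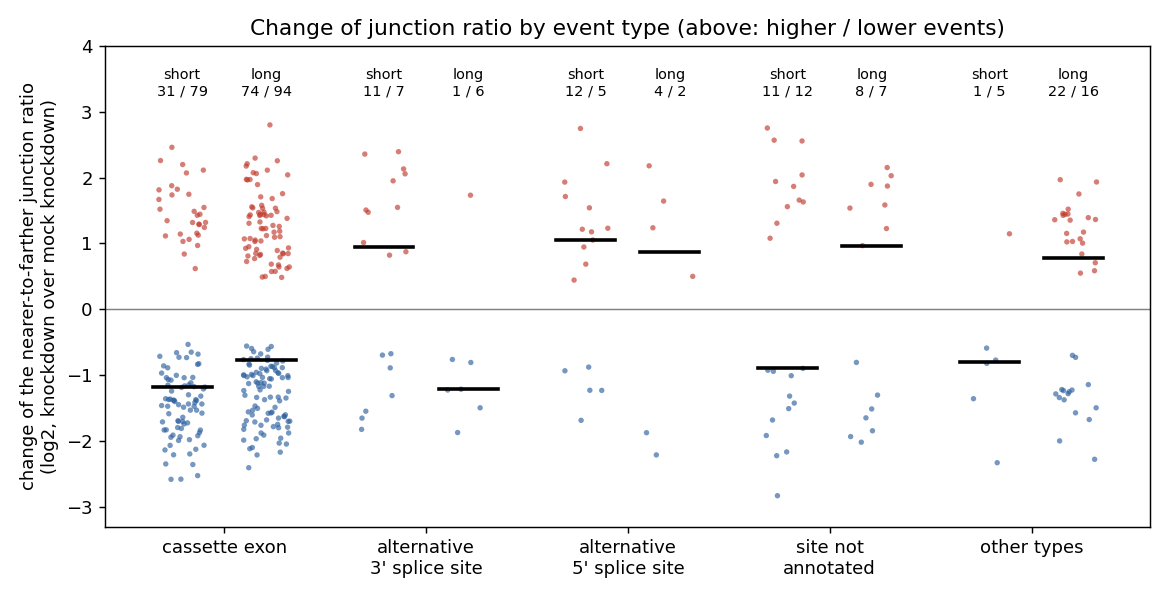
Change of the nearer-to-farther junction ratio (log2, knockdown over mock knockdown) for each 2-junction event, by event type and by short or long span. Points are events, black bars are medians, and the numbers above give higher and lower events: short cassette exons number 31 higher and 79 lower, long ones 74 and 94.

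The excess of skipping was most marked where the whole exon with both its introns was shortest. Among cassette events whose skipping junction spans under 500 nt, 18 were lower and 1 was higher. Between 500 and 1000 nt the counts were 16 and 7, between 1000 and 2000 nt 22 and 16, and between 2000 and 3000 nt 23 and 7. The order is thus not a steady one across the short range. In the longer classes, 3000 to 5000 nt gave 25 lower and 19 higher, and 5000 to 10000 nt gave 32 and 31. From 10000 to 20000 nt the counts were 16 and 13, and at 20000 nt or more 21 and 11. That longest class was 65.6% lower, beside 57.9% between 1000 and 2000 nt, so the lean did not fade steadily with span. With each exon counted once, 15 of the 16 exons under 500 nt were lower.

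**Figure D2:**
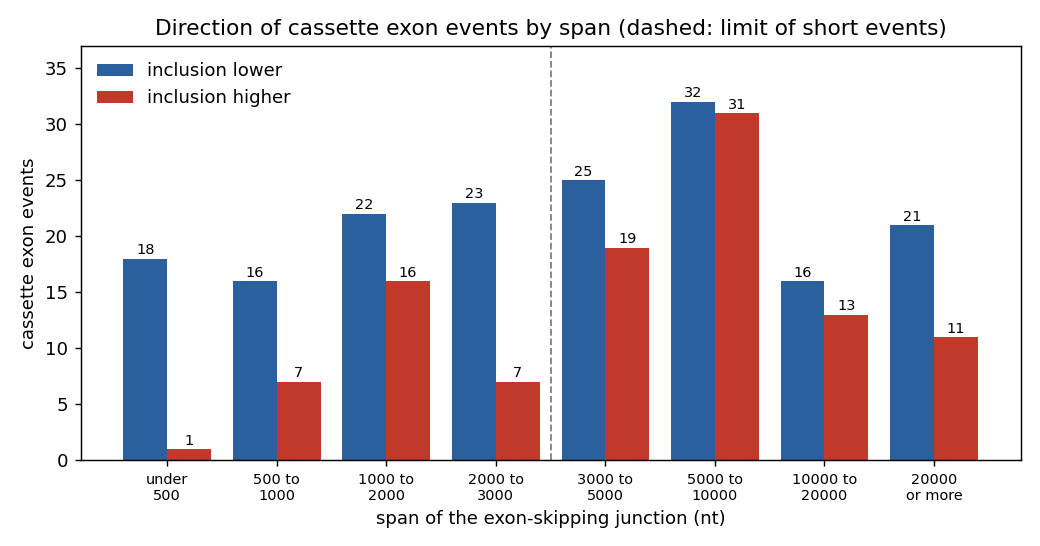
Number of cassette exon events with lower (blue) and higher (red) inclusion after knockdown, by span of the exon-skipping junction in nt. The dashed line is the 3000 nt limit of the short events; under 500 nt 18 events are lower and 1 is higher.

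The 18 lower events under 500 nt lie in 15 genes, and their inclusion ratios ran from 0.273 to 0.604 times the mock ratio. Jag2, a ligand of the Notch receptors, had its exon of 114 nt, between introns of 161 and 87 nt, at 0.363 times from the upstream and 0.303 times from the downstream side. Chd5, a chromatin remodeller of neurons, stood at 0.366 times, with an inferred inclusion of 63.1% in mock and 38.5% in knockdown. Celsr2, a cadherin of planar cell polarity, was at 0.369 times. Genes of general metabolism and transport were among them too: Galt, an enzyme of galactose metabolism, at 0.36 times, Fdxr, a mitochondrial ferredoxin reductase, at 0.333 times, and Fxc1, a mitochondrial import factor, at 0.387 times. Med25, a Mediator subunit, had its exon of 72 nt at 0.478 and 0.511 times from its 2 sides. The single higher event was the 53 nt exon of D7Ertd715e, a non-coding transcript (Snhg14 in the gene models), at 5.5 times the mock ratio.

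The exons that were skipped more were mostly coding exons that most messages carried. Of the 79 lower events 74 (93.7%) concern a coding exon, against 17 of the 31 higher ones (54.8%). Among long cassette events the corresponding shares were 87.2% and 83.8%. The inferred inclusion in mock was over 50% in 69 of the 79 lower events, with a median of 79.4% (interquartile range 58.9% to 90.3%). It was over 50% in 9 of the 31 higher events, with a median of 19.9% (8.86% to 53.1%). Read the other way, 88.5% of short cassette events with mock inclusion over 50% were lower, beside 68.4% of long ones. Of those at 50% or under, 31.2% of the short and 38.6% of the long were lower. The median inferred shift was -16.9 percentage points in lower and 13.1 in higher short events.

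**Figure D3:**
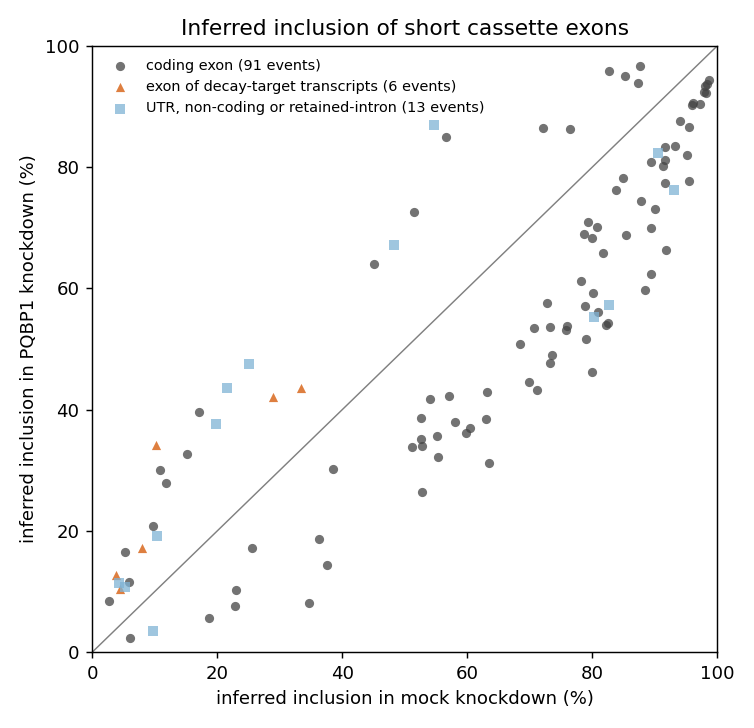
Inferred inclusion (%) in PQBP1 knockdown against mock knockdown for the 110 short cassette exon events, by annotation of the exon; the line marks equal inclusion. Coding exons (91 events) lie mostly below the line at high mock inclusion, and the 6 events of decay-target exons lie above it, from 3.8% to 33.4% in mock.

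The largest falls among short cassette exon events were in Actn1, Acad8 and Rps6kb2. Acad8 encodes a mitochondrial dehydrogenase of valine breakdown. The log2 folds in the authors' deposited table were -0.30 for inclusion and 2.28 for skipping (p = 0.0186). The inferred inclusion of its 110 nt exon went from 95.4% in mock to 77.8%. Rps6kb2 encodes a kinase of ribosomal protein S6. In the authors' deposited table its junctions had log2 folds of -0.47 and 2.05 (p = 0.000559), and the 58 nt exon went from an inferred 91.9% to 66.3%. In both genes the skipping junction is annotated in decay-target transcripts and in no protein-coding one, and the length of the exon is no multiple of 3. The exon sequences stand above, and that of Rps6kb2 ends in TG at the donor.

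Actn1, which encodes the actin crosslinker alpha-actinin, has 3 short events around a pair of coding exons of 81 and 66 nt in the region of its calcium-binding EF hands.
Actn1, 81 nt, chr12:80170686-80170766, minus strand: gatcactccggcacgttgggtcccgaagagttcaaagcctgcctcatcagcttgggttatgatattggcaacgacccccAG
Actn1, 66 nt, chr12:80170183-80170248, minus strand: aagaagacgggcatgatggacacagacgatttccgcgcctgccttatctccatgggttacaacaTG
The junction that joins the 81 nt exon to the 66 nt exon, positions 80170249 to 80170685 on chromosome 12, is not annotated and had log2 folds of -2.09 and -1.71 in its 2 events of the authors' deposited table. Its inferred share went from 34.6% to 8.12% among junctions into the 66 nt exon. Among junctions out of the 81 nt exon it went from 18.7% to 5.72%. Of messages leaving the upstream exon, an inferred 84.5% joined the 81 nt exon in mock and 68.1% in knockdown, the rest the 66 nt exon. Joint use of both exons and use of the 81 nt exon were thus both lower after knockdown. The event counted as lower for the 66 nt exon holds only among messages with the 81 nt exon. The junction from the upstream exon into the 66 nt exon had a log2 fold of 1.05 in the authors' deposited table. Lower inclusion of the 66 nt exon across all messages is therefore not shown.

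Gria2, which encodes an AMPA receptor subunit, also has 3 short events and the smallest p of the group. Its exons of 115 nt are the flip and flop exons, which are known to exchange and to set the desensitisation of the receptor. They are shown with the flip exon first and the flop exon, at the far site, second.
Gria2 flip, chr3:80690404-80690518, minus strand: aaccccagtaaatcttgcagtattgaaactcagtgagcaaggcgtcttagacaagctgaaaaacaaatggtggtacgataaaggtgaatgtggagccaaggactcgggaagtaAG
Gria2 flop, chr3:80691320-80691434, minus strand: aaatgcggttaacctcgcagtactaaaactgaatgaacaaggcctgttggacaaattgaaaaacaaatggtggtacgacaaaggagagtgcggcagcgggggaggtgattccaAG
The 2 exons differ at 36 of 115 positions (68.7% identity). Among junctions into the exon downstream of the pair, the flip exon supplied an inferred 81.7% in mock and 65.9% in knockdown. The log2 folds in the authors' deposited table were -0.31 for the flip and 0.90 for the flop exon (p = 2.45e-05). Out of the flop exon, the junction into the flip exon went from an inferred 55.3% to 32.2%, and the rest skipped the flip exon (p = 0.000258 in the authors' deposited table). The third event, with p = 6.89e-06 in the authors' deposited table, lies in the next intron. There the annotated donor stood against a second donor, not annotated, 114 nt inside the exon, and their ratio was 0.373 times that of mock. The other small p-values of the group, in the authors' deposited table, include those of Dlgap4 (1.93e-05), Chd5 (0.000412), Adam15 (0.000532) and Ehmt2 (0.000653).

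A set of 18 exons is listed from both sides within the short group, and this gives each of them a pair of values that share the skipping junction. The 18 exons had the same direction from both sides, 16 lower and 2 higher. The inferred mock inclusion differed between sides by a median of 1.07 percentage points and by at most 26.4, in Gria2, whose upstream junction joins the flip to the flop exon. Zfp207, a zinc finger protein that binds microtubules, had its 48 nt exon at 0.227 and 0.26 times, and Supt5h, a transcription elongation factor, its 159 nt exon at 0.218 and 0.239 times. Ehmt2, a histone H3 methyltransferase, had its 116 nt exon at 0.299 times from the upstream and 0.309 times from the downstream side. Kdm1a, a histone demethylase, had its 147 nt exon at 0.54 and 0.56 times, and Cdk4, a cell cycle kinase, its 234 nt exon at 0.637 and 0.624 times. Dlgap4, a scaffold of the postsynaptic density, showed the largest spread of this kind among lower exons, with 0.564 times upstream and 0.321 times downstream. The 2 higher exons were those of Arhgap21, a regulator of small GTPases (2.45 and 2.87 times), and Pdxdc1 (4.2 and 4.79 times).

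**Figure D4:**
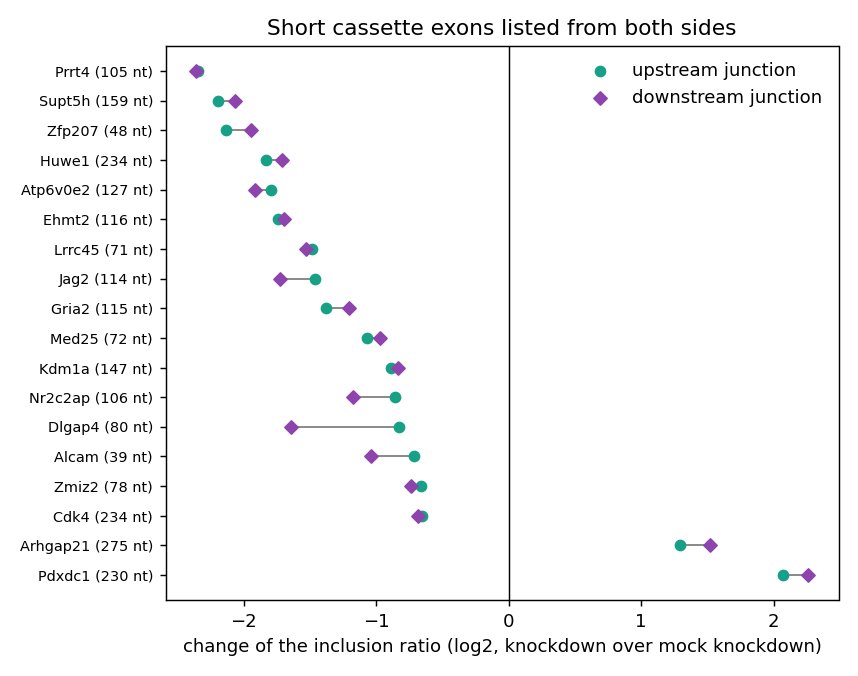
Change of the inclusion ratio (log2, knockdown over mock knockdown) of the 18 short cassette exons listed from both sides, read at the upstream junction (circles) and the downstream junction (diamonds). Each pair lies on the same side of 0, with 16 exons lower and 2 higher.

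Exon features differed between the directions, and part of that went with coding status. The median GC content was 56.4% for lower (interquartile range 49.8% to 60.1%) and 50.8% for higher exons (46.0% to 56.9%), beside 51.3% and 48.8% in long events. Within coding exons alone the higher short exons had a median of 56.8%, so the difference was not present there. Length in multiples of 3 was found for 49 of 79 lower (62.0%) and 13 of 31 higher events (41.9%). In long events these shares were 72.3% and 78.4%. Within coding exons it was a multiple of 3 in 46 of 74 lower and 11 of 17 higher events. Of the 28 lower coding events with a length that is no multiple of 3, 9 have a skipping junction annotated in decay targets but in no protein-coding transcript. Across all short cassette events the skipping junction is missing from protein-coding transcripts in 30 of 79 lower and 3 of 31 higher events. Long events were alike in this, with 36 of 94 lower and 5 of 74 higher events.

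The shorter of the introns beside the exon had a smaller median for lower exons. It was 244 nt for lower and 427 nt for higher short events, and 244 and 418 nt with each exon counted once. The longer flanking intron showed no steady difference. Its medians were 768 and 888 nt by event but 838 and 824 nt with each exon once. In long events the medians were 1620 and 1839 nt for the shorter intron, and 5590.5 and 4908 nt for the longer one. The exon ended in AG next to the donor in 54 of the 110 short cassette events (49.1%) and 64.3% of the long ones. With each exon counted once these shares were 52.2% and 61.4%, beside 55.9% of 180116 internal exons of protein-coding transcripts. Lower and higher short events were alike in this share, at 49.4% and 48.4%. The median exon length was 96 nt for lower and 124 nt for higher events.

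Very short exons of at most 27 nt, among which are the microexons of neurons, were few: 2 of 79 lower and 4 of 31 higher events. Among long cassette events they made up 9 of 94 lower and 10 of 74 higher ones. The lower ones were the 24 nt exon of Ppp1r9a, the actin-binding synaptic protein neurabin, at 0.285 times the mock ratio, and a 27 nt exon of Nnat, the imprinted gene neuronatin, at 0.488 times. The Nnat event fits 3 annotated exons and the Hira event 2, and the short lengths given are those the typing preferred. Higher were the 12 nt exon of Gramd1a, a sterol transporter (2.09 times), and the 27 nt exon of Dapk3, a kinase (2.49 times). A 25 nt exon of Hira, a histone chaperone, was also higher (1.79 times). It lies in decay targets and in no protein-coding transcript. The fourth was the 24 nt exon of Agrn, which organises the neuromuscular synapse. Among messages with the 33 nt exon downstream of it, its inferred share went from 56.7% to 84.99%. That 33 nt exon, read against the junction that skips both exons, went from 45.1% to 64.0%. Its event fits 2 annotated exons, and the length is that of the preferred one. In the authors' deposited table the p-values of these Agrn events were 0.000116 and 3.71e-05. These exons are the ones that give the neuronal form of agrin its activity in clustering acetylcholine receptors.

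Exons included more were coding in 17 of the 31 higher events. Of the others, 6 concern exons that lie in annotated targets of nonsense-mediated decay and in no protein-coding transcript. These may also lie in non-coding or retained-intron transcripts. A further 4 lie in untranslated regions of protein-coding transcripts and 4 in non-coding or retained-intron transcripts. All 6 short events of decay exons were higher: Ahctf1, a nuclear pore protein, at 4.59 times, Prpf4b, a spliceosomal kinase, at 3.67, Bclaf1 at 2.54, Snrpb, a core protein of the spliceosomal snRNPs, at 2.37, Hira at 1.79 and Snrnp70, a protein of the snRNP that pairs with donors, at 1.54 times. The Snrnp70, Snrpb and Hira events each fit 2 annotated exons, and the exon given is the one the typing preferred. The 60 nt Snrnp70 exon has the same acceptor and skipping junction as a 1360 nt exon of retained-intron transcripts. Its event does not tell these exons apart. The gene models place the stop codon inside 4 of the 6 exons as typed. The stop codon, in capitals, is given for these with at most 27 exon bases before it.
Ahctf1, chr1:179754571-179754600, minus strand: tccaccaaacccttgcaagagaggtacTGA
Bclaf1, chr10:20327211-20327240, plus strand: atagctgttgaaagatacaggcaaagtTGA
Snrpb, chr2:130176695-130176724, minus strand: tggcctcattacctatttgtaaagctgTAG
Snrnp70, chr7:45383159-45383184, minus strand: ccaccacgcagctggcttgcagcTGA
In Snrpb the inferred inclusion of this 124 nt exon was 8.03% in mock and 17.1% in knockdown. In Ahctf1 the exon of 134 nt went from 10.2% to 34.2%, and in Bclaf1 the exon of 228 nt from 4.37% to 10.4%. Among 168 long cassette events, 10 concern such exons, 6 of them higher and 4 lower.

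Alternative splice sites within short introns moved mostly to the nearer site, which lengthens the exon. Over both kinds, 23 of 35 events were higher, with a median change of 1.01 on the log2 scale, and in long introns 5 of 13 were higher. By kind, long donors were higher in 4 of 6 events, a share of 66.7% beside 70.6% for short donors, and long acceptors in 1 of 7. The sites lay a median of 39 nt apart (3 to 1397 nt), and the distance was a multiple of 3 in 22 of the 35. The added stretch is coding in 28 and in the 5' UTR in 4. Among the donors, Rnf32, a RING finger gene, showed the largest ratio, with the nearer donor at 6.71 times its mock ratio in the 5' UTR. Hspd1, the mitochondrial chaperone HSP60, followed at 4.63 times, also in the 5' UTR, and Itfg3 at 3.82 times. Brox (0.311 times), Dip2c (0.426) and Clasrp, a protein that binds a splicing kinase (0.426), went to the farther donor. In Clasrp the junction from the farther donor is annotated in decay targets.

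Among alternative acceptors, Metap2, a methionine aminopeptidase, stood at 5.26 times, Alkbh1, a nucleic acid demethylase, at 5.12 times and Ubap2l at 4.38 times. Alkbh1 had the largest inferred shift of this type, from 42.1% to 78.9% for the nearer acceptor, where the farther junction is annotated in decay targets. Agfg1 (0.283 times), Zfp653 (0.318) and Rap1gap, a regulator of the GTPase Rap (0.342), moved to the farther acceptor. Rbfox3, the neuronal splicing factor known as NeuN, used the nearer of acceptors 1397 nt apart at 2.84 times.

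There were 6 short events that choose between acceptors 3 nt apart, as in the sequences above, and 5 of them shifted to the nearer acceptor. The inferred share of the nearer acceptor went from 70.2% to 92.5% in Metap2, from 67.7% to 89.7% in Ttc27 and from 85.4% to 96.3% in Ubap2l, each with CAG as the added codon-sized stretch. In Zcchc12 it went from 56.5% to 78.3%, in the 5' UTR, and in Hnrnpa2b1, whose farther site is not annotated, from 94.97% to 98.7%. Setdb1, a histone methyltransferase, whose added bases are AAG, went the other way, from 89.2% to 76.9%. The 6 events of this spacing in long introns split into 2 higher and 4 lower. Of all 17 short events with sites at most 18 nt apart, 13 were higher and 4 lower.

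**Figure D5:**
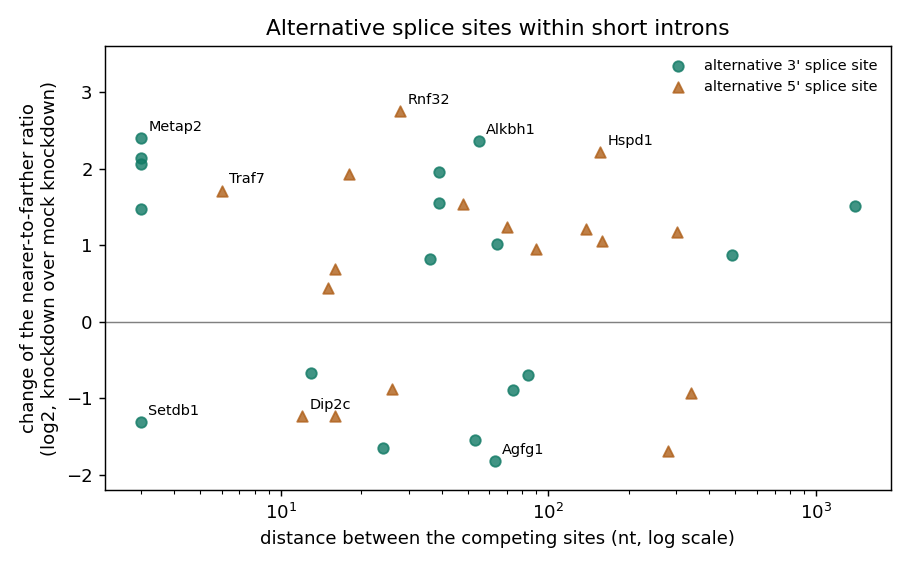
Change of the nearer-to-farther site ratio (log2, knockdown over mock knockdown) against the distance between the sites (nt, log scale) for the 18 alternative 3' and 17 alternative 5' splice site events in short introns. Points above 0 (23 of 35) used the nearer site more after knockdown, and 4 of the 5 points at 3 nt lie there.

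Events with a site outside the gene models held the extremes of the group. Ptpru, a receptor phosphatase, moved to the annotated donor 9 nt from an unannotated one, at 6.74 times, and its inferred share went from 37.3% to 80.1%. Spata7, a ciliary gene, stood at 5.93 times and Camkv, a kinase-like protein of neurons, at 5.88 times. Lrrc8a, a subunit of volume-regulated channels, had its unannotated nearer junction at 0.141 times, from an inferred 29.9% to 5.67%. Ubr3, a ubiquitin ligase, was at 0.214 times, Celf3, a neuronal splicing regulator, at 0.223 times and Adam15, a metalloprotease, at 0.265 times. In 12 of the 23 events the nearer junction is the unannotated one, and 7 of these were lower.

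The remaining types are few. Lmo4, a transcriptional regulator, moved to the farther first exon, at 0.665 times. Dhps, the enzyme that makes the hypusine of a translation factor, skipped several exons more from the donor side (0.199 times) and its 97 nt exon from the acceptor side (0.229 times). Mutually exclusive exons of Dnm1, the synaptic GTPase dynamin, were at 0.566 times for the nearer exon and those of Rab6a, a Golgi GTPase, at 0.586 times.

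By gene function, splicing factors and RNA-binding proteins went against the direction of the group. Of 177 symbols of this list, 12 genes have a short event, with 12 events higher and 2 lower and a median ratio of 2.42 times the mock ratio, beside 0.522 times over all 174 short events. The count depends on which genes are listed: Celf3 (0.617 and 0.223 times), Clasrp (0.426 times) and Ybx1, which binds RNA (0.441 times), are not on the list and were lower. The list's direction is known from earlier results of these data and is no independent evidence. Besides the decay exons above, rare exons of Srsf6 (165 nt, 3.36 times, from an inferred 2.7% to 8.53%) and Srsf2 (104 nt of the 3' UTR, 2.21 times), both serine/arginine-rich splicing factors, were included more. The Srsf6 event fits 2 annotated exons, and the exon given is the one the typing preferred. A 1360 nt exon of Snrnp70 in retained-intron transcripts stood at 2.92 times. Rbfox1, a neuronal splicing factor, was at 2.48 times with an unannotated junction. Acin1 was at 1.77 times. The nearer junctions of Hnrnph3 (0.499 times) and of a second Hnrnpa2b1 event (0.527 times) were lower.

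The chromatin and transcription list had 11 events lower and 1 higher in 8 genes, with a median of 0.486 times. Over all short events 62.1% were lower. Of the lower events, 8 are the 2 sides of 4 exons, in Zfp207, Ehmt2, Kdm1a and Cdk4. The list is broad: Zfp207 and Cdk4 are described above as a protein that binds microtubules and a cell cycle kinase. Zfp207, Ehmt2, Kdm1a, Cdk4 and Setdb1 are given above, and Smarcc2, a subunit of SWI/SNF remodellers (0.524 times), and Med24, a Mediator subunit (0.451 times), belong here as well. The higher event of the list was that of Usf1, a transcription factor, at 2.02 times. Chromatin and transcription genes that are not on the list went both ways. Higher were Hira at 1.79 times, Dot1l, a histone methyltransferase, at 3.54 times and Hmgn3, a nucleosome-binding protein, at 2.72 times. Lower were Chd5 (0.366 times), Med25 (0.478 and 0.511 times) and Supt5h (0.218 and 0.239 times). Synaptic genes had 8 events lower and 2 higher in 6 genes, and 5 of the lower ones lie in Gria2 and Dlgap4. The higher ones were both of Agrn, and the largest fall was in Ppfibp1, a liprin, whose 93 nt exon stood at 0.254 times. In the cytoskeleton list all 5 events, in Actn1, Ppp1r9a and Evl, an actin regulator (0.691 times), were lower. Most of these are the Actn1 events, which share junctions around the same pair of exons and are not separate cases.

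The other lists were small. Mitochondrial and metabolic genes had 3 events higher and 2 lower, with Gmppa, an enzyme subunit of sugar nucleotide synthesis, at 2.18 times and Hspd1, Acad8 and Fxc1 as above. The remaining member was Mff, a mitochondrial fission factor, at 2.04 times. Translation genes split 2 and 2, with Rpl13a, a ribosomal protein, at 2.07 times and Eif4g1, an initiation factor, at 0.45 times beside Metap2 and Rps6kb2. Channels and transporters had 2 higher, Kcnd3, a potassium channel (2.5 times), and Ttyh1 (1.83 times), and Lrrc8a lower. Outgrowth and adhesion genes had 1 event higher, in Ptpru, and 2 lower, with Celsr2 among them. Trafficking and ubiquitin genes had Rnf32 higher, both sides of a 234 nt exon of Huwe1, a ubiquitin ligase (0.281 and 0.306 times), and Rab6a lower. DNA repair had Alkbh1 higher and Fance, a Fanconi anaemia protein (0.401 times), lower.

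At the limit of the group, the events just inside 3000 nt were those of Snrnp70, 2500003M10Rik and Usf1, with larger spans of 2984, 2987 and 2995 nt and ratios of 1.54, 0.384 and 2.02 times. Just outside lay Pla2g6, Tln2 and Cask, at 3004, 3005 and 3010 nt, with ratios of 3.92, 3.12 and 2.28 times.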

How the data were processed

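RNA of cultured mouse cortical neurons was sequenced from polyA RNA, in 2 PQBP1 knockdown and 3 mock knockdown samples, per the labels. The submitters' processing notes name TopHat2 (version 2.0.4) and the build mm10. How junctions were counted and tested, whether p was adjusted and whether replicates were pooled is not stated. Each junction has, per the file headers, the authors' p-value and their log2 fold of knockdown over control. These p-values are used unadjusted as deposited, and where nothing says that samples came from separate cultures they may reflect technical spread. The depth per sample is unknown.

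Junctions were read as introns with 1 added to start and end, which matched GENCODE M21 introns for 1179 of 1402 junctions (306 of 348 in short events). In all 408 2-junction events the 2 folds had opposite signs and the same p, so the folds were read as changes of relative use. Events were typed from annotated exons. A link between exon and far site came from an annotated intron or a junction of the table. Where several exons fitted (11 of 110 short cassette events), exons outside retained-intron transcripts, then exons linked in the table, then the shortest were preferred. Those events are in Nnat, Hira, Snrnp70, Snrpb, Srsf6, Agrn (the 33 nt exon), Gmppa, Arfip2, Arhgap21, Dlgap4 and Cdk4. Further, 3 cassette events (in Gria2, Cdk4 and Flot1) also fit an annotated exchange of exons. The 2 Actn1 cassette events rest on an unannotated junction between exons that a further event types as mutually exclusive. Shares of use were solved from the 2 folds. Typing and this solution were tested on simulated gene models. Exon sequences came from GENCODE M21 transcripts. Without genome sequence, splice sites could be scored on the exon side only. Python 3.11.15 and pandas 2.3.3 were used.

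The members, gene lists and tests were chosen with earlier results of these data known. Named were, per type, the 3 largest changes each way, the 10 smallest p, genes with 3 or more events, exons of 27 nt or less, the leading members of each list and the neighbours of the 3000 nt limit; other genes named, and the sequences shown, were chosen after their values were seen. Some results that the rule would name are not reported here. The design foresaw descriptions without a test of its own, since the table holds no values per sample. The alternatives tried are other span limits, a stricter p, a minimum size, annotated junctions alone, and counting by exon or gene.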

Additional observations from a re-analysis of the deposited data

How the results depend on the processing

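No paired analysis was possible because the table gives no value per sample, and for the same reason no replicate could be left out. Of 79 values recomputed under other settings, 6 moved beyond the 95% interval of the value reported. That interval counts events as independent, which the 2 sides of an exon are not, and most settings are subsets of the same events, so the other 73 say little about stability. The lower share of short events was 63.2%, 61.1% and 60.1% at limits of 1500, 2000 and 5000 nt. It was 59.0% with each exon once and 57.8% with each gene once. The 57.1% of all 2-junction events counts every event and is not a like value. For cassette exons each counted once, 63 of 92 short and 71 of 132 long exons were lower. The median size was 1.55 on the log2 scale among changes of at least 1, by the construction of that setting. With p under 0.01, the lower share of alternative 5' splice sites was 0%, over the 2 events left. With that p the median GC content of lower exons was 58.3% and the share with a length in multiples of 3 was 41.7%; the cause was not tested. Among coding exons alone, added after seeing the data, higher exons had a median GC content of 56.8% and 64.7% had a length in multiples of 3. A splice site matrix score was not run, since no genome sequence was used. Read depth behind each event is unknown, and for rare junctions a large ratio can be a small shift in share.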

Other observations

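Both events of Kctd17, a substrate adaptor of a ubiquitin ligase, were lower, with exons of 75 nt (0.281 times the mock ratio) and 94 nt (0.439 times). Ttc14 included its 93 nt exon at 0.28 times, from an inferred 22.9% to 7.68%, and Ndrg4 its 39 nt exon at 0.36 times, from 6.05% to 2.27%, so that skipping also increased in exons that were rare in mock. Pacsin2, a membrane-bending protein of endocytosis, was at 0.374 times (123 nt exon), and Alcam, a cell adhesion molecule, at 0.61 and 0.487 times from the 2 sides of its 39 nt exon. Fn1, which encodes fibronectin, an extracellular matrix protein, had its 273 nt exon at 0.307 times, from an inferred 71.2% to 43.2%.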
